A study of Mus musculus with 42 samples.

Results

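The genes described here make or use the activated form of sulfate: the cytosolic sulfotransferases Sult1a1, Sult1b1, Sult1c2 and Sult1d1, the synthases Papss1 and Papss2, and the sulfate carrier Slc26a2. They were picked by name, for their part in sulfation, with earlier results of these data known. They are 7 of 19232 gene names with a row in at least 1 of 12 tables of normalized read counts from mouse colon. All 7 have a row in 11 tables, and 6 have one in the table of distal Gli1+ cells with the Alk3 knockout, where Sult1c2 is not listed.

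Sulfate enters the cell through anion exchangers such as Slc26a2. Papss1 and Papss2 each join sulfate to ATP in a pair of steps and yield PAPS, the donor from which all sulfotransferases take their sulfate. Cytosolic sulfotransferases pass it to phenols, hormones, bile products and xenobiotics, while Golgi sulfotransferases use the same donor to sulfate the sugars of mucins and proteoglycans, which makes sulfate supply a matter of interest in the mucus-secreting goblet cells of the colon.

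The series asks how BMP signalling in the stroma, and the cytokines IL-1 and IL-17, act on goblet cells. Sorted cells came from tamoxifen-treated mice aged 2 to 4 months, taken at day 30, from proximal and from distal colon, with 2 libraries per group. All sorted groups carry Gli1-CreERT2, a tamoxifen-inducible Cre expressed from the Gli1 gene in subepithelial stromal cells, so the controls carry the Cre and received tamoxifen too. Muc2-mCherry+ goblet cells came from control mice (GWTM2), from mice with floxed Smad4 (GS4M2) and from mice with floxed Alk3 (GA3M2). Smad4 is the shared mediator of BMP and TGF-β signals, and Alk3, gene Bmpr1a, is a BMP receptor. Because the Cre acts in Gli1+ stromal cells, the sorted goblet cells of GS4M2 and GA3M2 mice are not the cells meant to lose the gene. Gli1+ stromal cells themselves were sorted by tdTomato from control (GWTT), Smad4 knockout (GS4T) and Alk3 knockout (GA3T) mice. Organoids, grown from wild-type distal colon crypts and free of stroma, were left untreated or given 10 nM IL-1 (IL-1α and IL-1β) or 10 nM IL-17A for 12 or 72 h, with 3 libraries per group. The labels do not say whether libraries of a group came from separate mice or cultures, so each p-value measures only the spread between these libraries. Where nothing else separates them that spread may be technical, but in the GWTM2 controls the sex genes show that the 2 libraries of a segment came from different mice.

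Reads on named genes ranged from 14222902 to 23686940 over the 40 distinct libraries. Of the 6 control organoid libraries, 2 given under 12 h hold the same reads as 2 given under 72 h, differing in 2 of 14249 genes, so untreated organoids were not compared between times. Smad4 fell in proximal GS4T cells, from 1604 and 1673 normalized counts to 705 and 835 (log2 change −1.09, SE 0.12, limma adjusted p = 0.0101). In distal GS4T cells it stood at 680 and 1171 against 1781 and 1703 (−0.96, SE 0.25, limma adjusted p = 0.0424). Bmpr1a in GA3T cells stood below every control library, but with changes of −0.61 in proximal and −0.69 in distal cells it was not called (limma adjusted p = 0.12 and 0.101). It was also below every control in proximal and distal goblet cells of GA3M2 (−0.50 and −0.31) and GS4M2 mice (−0.34 and −0.32). In GS4T cells it was below in the distal colon (−0.24) and overlapped in the proximal colon (−0.04). Summed over 7 goblet markers, Muc2-mCherry+ libraries held 29578 to 61172 CPM (each gene's reads as a rate over all reads on named genes) in GWTM2, 35224 to 47656 in GS4M2 and 8878 to 20978 in GA3M2. Summed over 5 fibroblast markers, they held at most 16.4 CPM, against 31314 to 43539 in Gli1+ cells. In proximal GA3M2 cells Muc2 itself fell (−3.63, SE 0.34, limma adjusted p = 0.0464).

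Each gene was placed on GRCm38, to which the files' build mm10 corresponds, by the GENCODE M21 annotation. Sult1a1 (ENSMUSG00000030711, minus strand) lies at chr7:126672865-126676432 and overlaps 61 bases of Sgf29 on the other strand. Sult1b1 (ENSMUSG00000029269, chr5:87513339-87538195) and Sult1d1 (ENSMUSG00000029273, chr5:87554645-87569027) are neighbours on the minus strand, 16450 bases apart. Sult1c2 (ENSMUSG00000023122) spans chr17:53829637-53846339 on the minus strand. Papss1 (ENSMUSG00000028032) spans chr3:131564768-131643671 on the plus strand, and shares 3344 bases with the uncharacterized Gm42881 on the other strand. Papss2 (ENSMUSG00000024899) spans chr19:32595790-32667187 on the plus strand. Slc26a2 carries the identifier ENSMUSG00000034320. The strand setting of the counting is not given in the sources used here, so reads of Sult1a1 and Sgf29, or of Papss1 and Gm42881, cannot be told apart where they overlap.

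Promoter windows of 300 bases, from 250 before to 50 after the start of transcription, were taken from RefSeq (build GRCm38.p6), which held entries for 6 of the 7 genes. The first 3 are shown because these genes fell together in proximal goblet cells of Smad4 knockout mice, and the other 2 because these neighbours were higher in organoids after 72 h of IL-1. Sequences run 5′ to 3′ on the strand of the gene, and capitals mark a match to any of 7 motifs searched on both strands: CDX (TTTATG), HNF4 (CAAAGTCCA), NF-kB, a SMAD palindrome (GTCTAGAC), a BMP response motif (GGCGCC), the GC box (GGGCGG) and the TATA box (TATAAA). The GC box and the BMP response motif can share bases where they meet.
Sult1a1, chr7:126676369-126676668, minus strand: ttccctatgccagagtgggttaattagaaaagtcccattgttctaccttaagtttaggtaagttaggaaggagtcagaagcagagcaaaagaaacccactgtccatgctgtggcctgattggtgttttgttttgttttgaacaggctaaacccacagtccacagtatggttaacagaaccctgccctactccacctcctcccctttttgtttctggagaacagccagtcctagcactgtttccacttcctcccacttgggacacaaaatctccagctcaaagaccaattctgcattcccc
Sult1c2, chr17:53845909-53846208, minus strand: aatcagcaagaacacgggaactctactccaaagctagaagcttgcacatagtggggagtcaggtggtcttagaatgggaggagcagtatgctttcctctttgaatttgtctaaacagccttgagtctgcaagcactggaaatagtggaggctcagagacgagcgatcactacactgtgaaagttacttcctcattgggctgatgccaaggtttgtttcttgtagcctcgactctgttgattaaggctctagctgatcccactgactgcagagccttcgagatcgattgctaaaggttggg
Papss2, first start, chr19:32595465-32595764, plus strand: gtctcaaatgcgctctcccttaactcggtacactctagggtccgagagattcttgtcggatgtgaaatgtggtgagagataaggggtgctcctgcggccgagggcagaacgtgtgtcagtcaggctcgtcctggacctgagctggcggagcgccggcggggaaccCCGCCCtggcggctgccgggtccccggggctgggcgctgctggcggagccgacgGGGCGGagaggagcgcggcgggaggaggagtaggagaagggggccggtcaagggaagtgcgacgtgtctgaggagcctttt
Sult1b1, second start, chr5:87536173-87536472, minus strand: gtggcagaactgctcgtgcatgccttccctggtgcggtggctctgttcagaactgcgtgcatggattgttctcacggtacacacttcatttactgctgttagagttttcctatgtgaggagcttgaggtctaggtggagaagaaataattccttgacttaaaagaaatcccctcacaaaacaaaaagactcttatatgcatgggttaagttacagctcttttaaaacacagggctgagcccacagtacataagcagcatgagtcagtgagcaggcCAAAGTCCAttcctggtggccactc
Sult1d1, chr5:87568957-87569256, minus strand: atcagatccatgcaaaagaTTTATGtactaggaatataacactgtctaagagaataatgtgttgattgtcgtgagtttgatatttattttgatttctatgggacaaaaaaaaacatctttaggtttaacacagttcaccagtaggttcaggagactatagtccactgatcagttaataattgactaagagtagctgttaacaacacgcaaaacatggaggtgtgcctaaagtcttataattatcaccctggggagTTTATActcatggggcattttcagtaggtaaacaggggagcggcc
The windows of Sult1a1 and Sult1c2 held none of these letters. The Papss2 window held a GC box at −85 and another at −31, counted from the start of transcription, a motif found in 35.658% of 32851 promoter windows. It was 66.3% G and C with 27 CG pairs, the same values as the first start of Papss1, where the median of all windows was 52.7% and 7 pairs. The Sult1a1 window had 46.3% G and C and 0 CG pairs. Sult1b1 has 2 starts, and the second, shown here because it held a match, carried the HNF4 letters at 26 bases into the transcript. The first start of Sult1b1 held none of the 7 motifs. The HNF4 letters were held by 0.475% of single windows. Sult1d1 carried the CDX letters at −231 (11.85% of windows) and the TATA letters on the opposite strand just after the start (13.616%). The SMAD palindrome (0.213% of windows), the NF-kB motif (1.467%) and the BMP response motif (11.866%) were in none of the member windows. A match is a description of letters and not a shown binding site.

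In control goblet cells of the proximal colon, the members spread over a wide range of levels per length of transcript. Sult1a1, a phenol sulfotransferase, was highest at 169 ± 21.3 CPM per kb of exon (SD, n = 2), followed by Sult1d1, a sulfotransferase of catecholamines and other small phenols, at 102 ± 24.5. Papss1 (69.7 ± 1.70) and Papss2 (68.8 ± 4.05) did not differ beyond their spread. Slc26a2 (43.3 ± 8.42), Sult1c2 (28.0 ± 5.14) and Sult1b1 (17.7 ± 6.34), a thyroid hormone and phenol sulfotransferase, followed, the last 2 with overlapping spreads. Distal control goblet cells had a different order: Sult1a1 (63.8 ± 41.7), Papss2 (62.1 ± 24.5) and Papss1 (58.4 ± 1.30) were within their spreads of each other, and so were Slc26a2 (46.5 ± 25.5) and Sult1d1 (42.6 ± 20.1). In organoids under 12 h control conditions (n = 3), Papss2 ranged from 61.4 to 256 and Slc26a2 from 43.5 to 71.9 CPM per kb, so these ranges overlapped, and Sult1a1 stood at 15.3 ± 8.07.

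Gli1+ stromal cells held less of every member that could be tested. Across both segments, 6 of 6 tested members were higher in GWTM2 goblet cells than in GWTT stromal cells, beside 26% of all genes tested (limma on log2(CPM + 0.1), 4 libraries against 4). The smallest difference was that of Papss1 (log2 difference 1.39, SE 0.06, limma adjusted p = 6.86e-07), at 195 ± 20.3 against 74.2 ± 5.87 CPM (SD, n = 4). Sult1d1 (6.42, SE 1.21, limma adjusted p = 0.00165) and Sult1b1 (6.12, SE 1.25, limma adjusted p = 0.00253) differed the most. Slc26a2 (3.16), Sult1a1 (3.85) and Papss2 (2.36) lay between. The median of all genes was 0.25, and TMM scaling lowered the share of calls that were higher from 60.3% to 50.7% with all 6 members still called. Cell type and the fluorescent reporter, with its sort, cannot be told apart in this comparison. In Gli1+ cells Papss1 ranked first per kb, at 25.8 ± 0.0996 CPM in proximal and 22.8 ± 1.35 in distal GWTT cells (n = 2), level with proximal Papss2 (24.5 ± 4.88).

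Loss of Smad4 in stromal cells went with lower sulfotransferase and Papss2 transcripts in goblet cells of the proximal colon. Of 7 members tested, 3 fell at a limma adjusted p under 0.05 and a fold of at least 2, beside 0.151% of all 13246 genes tested that fell by this rule. Sult1a1 had 4731 and 3985 normalized counts in GWTM2 and 599 and 918 in GS4M2 (log2 change −2.55, SE 0.21, limma adjusted p = 0.0177, n = 2 per group). Both knockout libraries lay well below both controls. Sult1c2, a cytosolic sulfotransferase with a low level here, had 766.5 and 1001.7 normalized counts in GWTM2 and 235.4 and 237.1 in GS4M2 (−1.89, SE 0.16, limma adjusted p = 0.0196). Papss2 had 4176 and 4570 in GWTM2 and 1685 and 1881 in GS4M2 (−1.29, SE 0.11, limma adjusted p = 0.0177). Neither pair of groups overlapped. In bulk libraries, fewer cells of a type and less RNA per cell cannot be told apart.

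Sult1d1 and Slc26a2 were also lower in each GS4M2 library than in each control, without passing the test. Sult1d1 had 3536 and 5021 normalized counts in GWTM2 and 1398 and 2054 in GS4M2 (−1.31, SE 0.23, limma adjusted p = 0.0891), and DESeq2, run on the recovered reads, gave it an adjusted p of 5.23e-06. Slc26a2 had 7866 and 10444 against 5486 and 6477 (−0.60, SE 0.17, limma adjusted p = 0.178). Groups of 5 members did not overlap and were lower, beside 25.2% of all genes. Sult1b1 overlapped (−0.62, SE 0.34). Papss1, the second synthase, stood at 3684 and 3584 in controls and 3738 and 3690 in knockouts (0.03, SE 0.09), the narrowest spread of the 7. With DESeq2, 4 members were called lower beside 1.1% of all genes. Without GS4M2 replicate 1, Papss2 (limma adjusted p = 0.063) and Sult1c2 (0.061) were no longer called, and Sult1a1 remained.

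**Figure D1:**
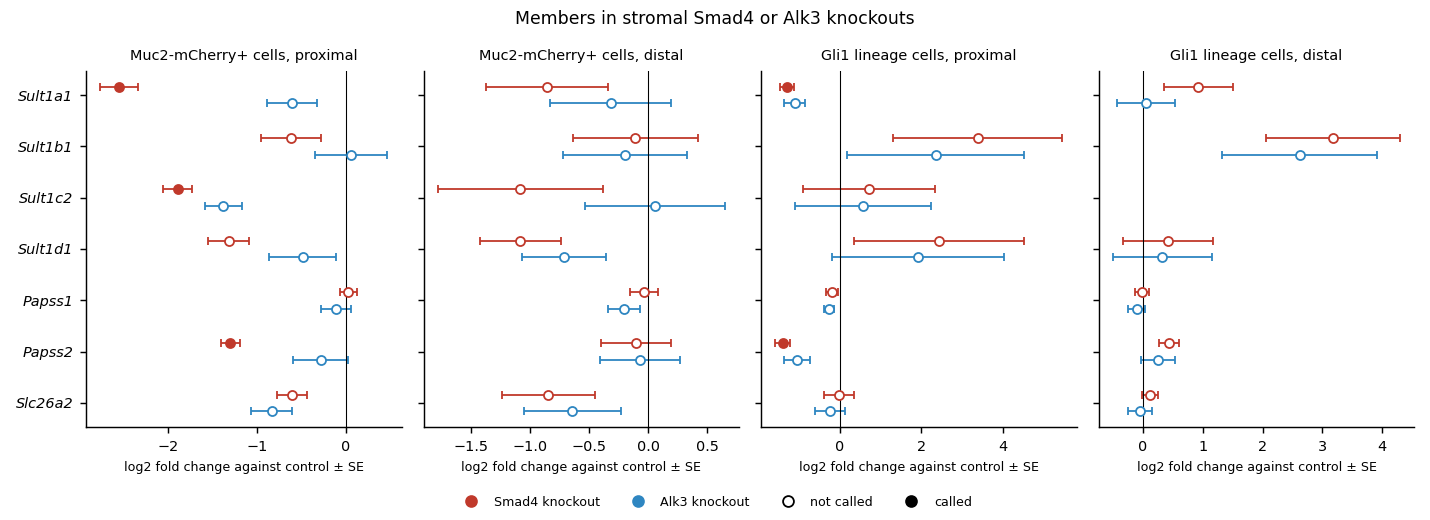
Log2 fold change of each member against its control, with its SE, in Muc2-mCherry+ and Gli1 lineage cells of proximal and distal colon (limma, 2 libraries per group; horizontal axes differ between panels). Red is Smad4 knockout, blue is Alk3 knockout and filled points are called; Sult1a1, Sult1c2 and Papss2 are called in proximal GS4M2 cells, and Sult1a1 and Papss2 in proximal GS4T cells.

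Several other measures moved in the same libraries. Of 6 colonocyte markers, absorptive cell genes that a goblet cell sort can carry over, 0 were called in proximal GS4M2 cells. Their sum was 2505 and 5734 CPM in proximal GWTM2 and 830 and 1690 in proximal GS4M2 libraries, and all 6 had reads in every one of these libraries. Within the list, carbonic anhydrase Car1 (−2.15, limma adjusted p = 0.133) and the chloride exchanger Slc26a3 (−2.01, limma adjusted p = 0.132) were lower in both knockout libraries, Krt20 was at −0.0022 (SE 0.40) and Aqp8 was higher (1.21). Of 7 goblet markers 0 were called, with Muc2 at 1.00 (SE 0.35). The 2 control libraries differed in the sex genes: GWTM2 replicate 1 of each segment had 1193 to 1200 CPM of Xist and 0 of Ddx3y, while replicate 2 and all GS4M2 and GA3M2 libraries had at most 0.813 CPM of Xist. Without that replicate, which leaves 1 control library, the changes were −2.42 for Sult1a1, −1.36 for Papss2 and −2.08 for Sult1c2. The part of the colonocyte genes in the result was not tested.

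**Figure D2:**
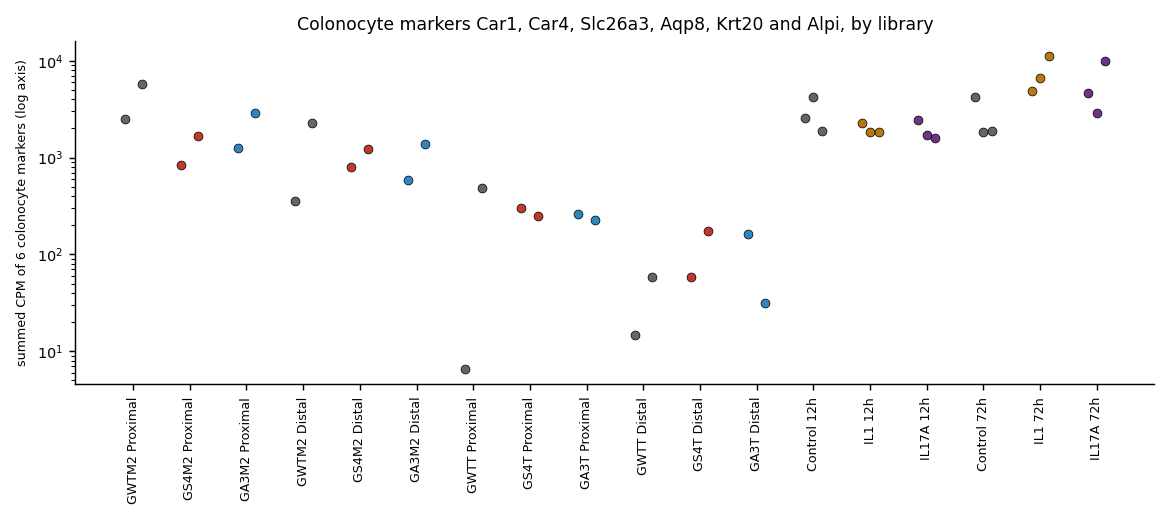
Summed CPM of 6 colonocyte markers in each library, on a log axis, by group (points are libraries; controls grey, Smad4 knockout red, Alk3 knockout blue, IL-1 orange, IL-17A purple). Proximal GWTM2 libraries lie at 2505 and 5734 CPM, above both GS4M2 libraries at 830 and 1690, and organoids after 72 h of IL-1 reach 11134 CPM.

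Outside the members, no gene of the sulfation lists was called in proximal GS4M2 cells. Lists of 2 other cytosolic sulfotransferases, 4 carriers and phosphatases of PAPS, 5 other sulfate and anion carriers, 9 genes of sulfite, sulfide and cysteine oxidation, 19 carbohydrate and tyrosine sulfotransferases and 11 sulfatases and their activators were tested. Of these, 0 genes were called by limma in either direction, beside 0.325% of all genes tested. The median log2 change of the carbohydrate and tyrosine sulfotransferases, which act on mucin and proteoglycan sugars and on protein tyrosines, was 0.10, that of the PAPS carriers and phosphatases −0.16 and that of the members −1.29, beside −0.0018 over all genes. In sulfite, sulfide and cysteine oxidation, 8 of 9 genes had a change below 0, with a median of −0.46.

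Loss of Alk3 left 0 of 7 members called in proximal goblet cells, beside 0.0899% of all genes. Sult1c2 came nearest, at 816 and 1059 normalized counts in GWTM2 and 337 and 380 in GA3M2 (−1.37, SE 0.21, limma adjusted p = 0.111). DESeq2 called Sult1c2 (adjusted p = 7.10e-05), beside 1.45% of all genes called lower by that tool, and limma called it without GA3M2 replicate 1 (−1.29, adjusted p = 0.0409). Sult1a1 had 5037 and 4213 against 2349 and 3918 (−0.60, SE 0.28), Slc26a2 was at −0.83 (SE 0.23), and both stood below the controls in each library without passing the test. Papss1 (−0.11) was below too, so that 4 members were lower without overlap, beside 26.1% of all genes. Sult1d1, Papss2 and Sult1b1 overlapped. Both knockouts are set against the same control libraries. Set directly against each other in the proximal colon, GS4M2 and GA3M2 cells differed in 0 of 7 members, beside 0.475% of all genes. Sult1a1 was at 45.4 ± 12.6 CPM in GS4M2 and 167 ± 53.6 in GA3M2 (−1.86, SE 0.45, limma adjusted p = 0.0756). Without GA3M2 replicate 1, which leaves 1 GA3M2 library, the differences were −2.20 for Sult1a1 and −1.35 for Papss2. The goblet marker sum was 35224 to 39122 CPM in proximal GS4M2 and 8878 to 12335 in proximal GA3M2 libraries, and its part in the differences was not tested.

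In the distal colon 0 of 7 members were called in GS4M2 and 0 of 7 in GA3M2 goblet cells, where limma called 0 genes of any kind. At an unadjusted p under 0.05 and a fold of 2, limma counted 353 and 539 genes, while edgeR called 0 genes in either and DESeq2 called 1.12% and 1.83% of genes at an adjusted p. Control libraries lay far apart here, with Sult1a1 at 914 and 2545 normalized counts, Slc26a2 at 6244 and 14448 and Sult1d1 at 1233 and 2528. GWTM2 replicate 1, the lower of them, also had the lowest colonocyte marker sum, 354 against 2283 CPM in replicate 2. Sult1d1 was at 850 and 814 in GS4M2, below both controls (−1.08, SE 0.34, limma adjusted p = 0.434), and DESeq2 called it (adjusted p = 0.0421). Without GWTM2 replicate 1, 3 members were called lower in each knockout: Sult1d1, Slc26a2 and Sult1a1, at −1.60, −1.45 and −1.59 in GS4M2 and at −1.24, −1.26 and −1.06 in GA3M2. In these fits 130 of 13078 genes were called lower in GS4M2 and 261 of 13082 in GA3M2. Each of them rests on 1 control library, assumed to vary as the knockout libraries do.

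Sult1a1, Sult1c2, Sult1d1 and Papss1 were higher in both proximal than in both distal control goblet libraries, and 0 of 7 members passed the test, beside 1.53% of all genes. In GWTM2 cells the colonocyte marker sum was 2505 and 5734 CPM in the proximal and 354 and 2283 in the distal libraries, and its part in these differences was not tested. The 4 members without overlap stand beside 26% of all genes that were higher without overlap. Sult1c2 was at 51.7 ± 9.48 CPM in proximal and 14.7 ± 11.2 in distal cells (2.04, SE 0.51, limma adjusted p = 0.0852). Sult1a1 was at 278 and 233 CPM in proximal cells and at 51.6 and 141 in distal cells (1.58, SE 0.45, limma adjusted p = 0.137). Sult1d1 had 208 and 293 against 69.6 and 140 CPM (1.32, SE 0.38, limma adjusted p = 0.139). Without the distal replicate 2, Sult1a1 (2.30, limma adjusted p = 0.0243) and Sult1c2 (2.91, 0.0105) were called. Papss2 overlapped between segments in controls (256 ± 15.1 against 231 ± 91.0 CPM). In GS4M2 cells both proximal libraries were below both distal ones (107 ± 6.25 against 217 ± 26.3, −1.01, SE 0.32, limma adjusted p = 0.105). Of the other members, only Sult1a1 overlapped there. Sult1b1 was lower as well, and Papss1, Slc26a2, Sult1c2 and Sult1d1 were higher in both proximal GS4M2 libraries. The share of all genes without overlap in GS4M2 cells is not given here. The test of whether the Smad4 knockout effect differed between segments gave −1.72 (SE 0.64) for Sult1a1 and −1.22 (SE 0.46) for Papss2, with a limma adjusted p of 0.998 for both (0.0153% of all genes called). In GA3M2 cells 0 members were called between segments (0.742% of all genes), and 0 in GS4M2 cells (4.15%). Without proximal GA3M2 replicate 1, Sult1d1 was called higher in proximal GA3M2 cells (1.97, limma adjusted p = 0.0153).

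**Figure D3:**
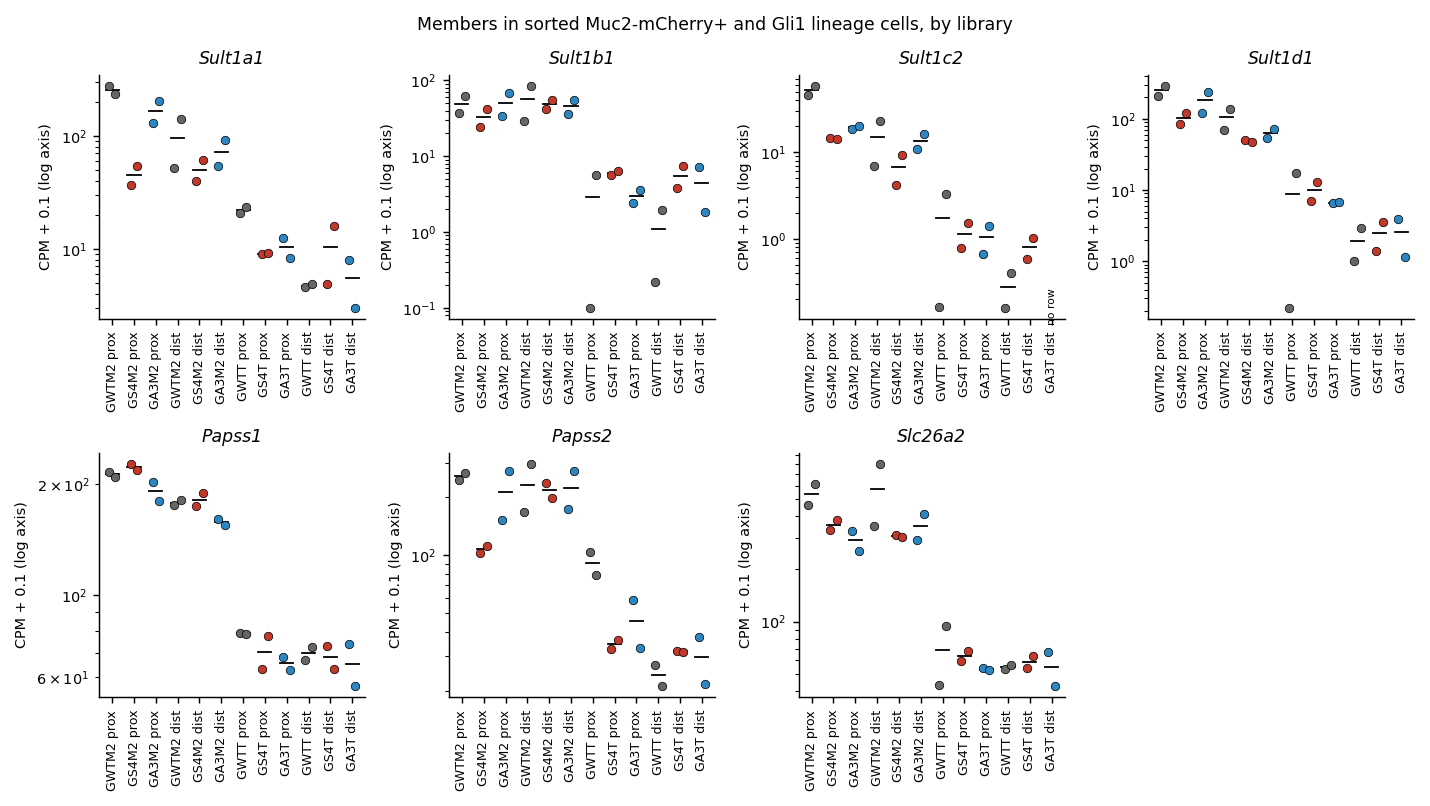
CPM plus 0.1 of each member in every library of sorted cells, on log axes that differ between panels (points are libraries, bars are group means, 2 libraries per group; prox is proximal and dist is distal). Controls are grey, Smad4 knockouts red and Alk3 knockouts blue, and Sult1b1 is drawn at 0.1 where GWTT proximal replicate 1 has 0 reads.

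Within Gli1+ stromal cells themselves, Papss2 and Sult1a1 fell with the loss of Smad4 in the proximal colon, 2 of 7 members tested beside 4.36% of all genes called lower. Papss2, the synthase known from cartilage and adrenal steroid sulfation, had 1760 and 1300 normalized counts in GWTT and 533 and 622 in GS4T (−1.39, SE 0.18, limma adjusted p = 0.0133). Sult1a1 had 347 and 388 in GWTT and 145 and 154.5 in GS4T (−1.29, SE 0.18, limma adjusted p = 0.0149). In the same libraries markers of other cell types were higher without overlap: the summed smooth muscle markers held 306 to 414 CPM in GWTT, 795 to 1081 in GS4T and 670 to 998 in GA3T, and the summed macrophage markers 47.3 to 77.5, 132 to 259 and 168 to 255. By limma 1 of 3 smooth muscle, 1 of 2 endothelial and 2 of 3 macrophage markers were called higher in GS4T and 0 in GA3T, and their part in the changes was not tested. Groups did not overlap for either gene, as for 31.4% of all genes that were lower. Leaving out GS4T replicate 1 or 2 ended both calls, with limma adjusted p of 0.119 for both genes without replicate 1, and 0.0862 for Papss2 and 0.096 for Sult1a1 without replicate 2. Papss2 and Sult1a1 were lower in each library under the Alk3 knockout as well, again against the same controls: Papss2 at 1852 and 1367 in GWTT and 1041 and 577 in GA3T (−1.04, SE 0.32, limma adjusted p = 0.175), Sult1a1 at 366 and 408 against 222 and 144 (−1.11, SE 0.26, limma adjusted p = 0.124). There 0 members were called by limma, beside 0.358% of all genes, and DESeq2 called both (adjusted p = 0.0443 and 0.0167), beside 1.91% of genes called lower by that tool. With Papss1 (−0.26), 3 members were lower without overlap, beside 27.5% of all genes.

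In distal stromal cells both genes stood higher, not lower, after the loss of Smad4, without passing the test. In GS4T cells 0 of 6 tested members were called, beside 14% of all genes. Papss2 had 442 and 341 normalized counts in GWTT and 523 and 527 in GS4T (0.43, SE 0.17, limma adjusted p = 0.125), and Sult1a1 had 74.3 and 77.4 against 78.8 and 267 (0.93, SE 0.57, limma adjusted p = 0.286). Both were higher in each knockout library, but the share of all genes that were so is not given here to set beside this. Without GS4T replicate 1, which leaves 1 knockout library, the change of Sult1a1 was 1.80. The sum of the epithelial markers Epcam, Krt8 and Cdh1 was 447 and 861 CPM in distal GS4T libraries and 36.9 and 116 in GWTT. Papss2 and Sult1a1 were also higher in goblet than in stromal cells (2.36 and 3.85). The same held for Sult1b1 (6.12), which was likewise higher in each distal GS4T library (3.17). It held too for Slc26a2 (3.16), Sult1d1 (6.42) and Papss1 (1.39), which overlapped in distal GS4T cells (0.12, 0.42 and −0.01). The part of epithelial transcripts in these levels was not tested. Tested directly, the difference between segments in the Smad4 effect was −1.80 (SE 0.44, limma adjusted p = 0.203) for Papss2 and −2.18 (SE 0.79, limma adjusted p = 0.437) for Sult1a1, beside 0.0391% of all genes called. Distal GA3T cells had 0 of 6 members called, with 0 genes called by limma, 1197 genes at an unadjusted p under 0.05 and a fold of 2, and 5.03% of genes called by DESeq2.

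Papss2 differed between the segments of control stroma. Its level was 104 and 78.4 CPM in proximal GWTT cells and 27.0 and 21.0 CPM in distal ones (1.92, SE 0.31, limma adjusted p = 0.0196), 1 of 6 tested members beside 0.365% of all genes called higher. The call was lost without distal replicate 1 (0.114), distal replicate 2 (0.151) or proximal replicate 1 (0.105), all limma adjusted p. The same libraries differed in marker sums, with smooth muscle at 306 to 414 CPM in proximal and 904 to 938 in distal cells, macrophage at 47.3 to 77.5 and 162 to 165, and endothelium at 10.6 to 10.7 and 20.9 to 24.3, whose part in the difference was not tested. Sult1a1 was at 20.6 and 23.4 CPM in proximal cells and at 4.53 and 4.77 in distal cells (2.21, SE 0.56, limma adjusted p = 0.0917). In GS4T cells Papss2 stood at 34.6 ± 2.58 CPM in proximal and 31.7 ± 0.219 in distal cells (0.12, SE 0.31), and 0 of 6 members were called there (0.0782% of all genes) and in GA3T cells (0.0912%). GS4T and GA3T cells set against each other also gave 0 called members in proximal (0.0782%) and distal colon (2.12%), as did distal GS4M2 against GA3M2 cells (0.566%).

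Sult1b1, Sult1d1 and Sult1c2 were at low levels in Gli1+ cells and lay far apart between the control libraries. GWTT proximal replicate 1 had 0 reads of Sult1b1, which allows up to 0.184 CPM by counting error alone, and 2.07 normalized counts of Sult1d1, while replicate 2 had 92.2 and 286. In the same 2 libraries the sum of the epithelial markers Epcam, Krt8 and Cdh1 was 8.62 and 330 CPM. GS4T proximal libraries had 91.3 and 109 normalized counts of Sult1b1 and an epithelial sum of 773 and 997 CPM. Without GWTT replicate 2, limma called Sult1b1 and Sult1d1 higher in proximal GS4T cells (adjusted p = 0.00197 and 0.00274) and Sult1d1 in proximal GA3T cells (adjusted p = 0.0496). The only control left in those fits holds 0 reads of Sult1b1 and 2 of Sult1d1 and is assumed to vary as the knockout libraries do, so no size is given. Distal GS4T cells had Sult1b1 at 60.2 and 121 normalized counts against 1.96 and 30.0 (3.17, SE 1.12, limma adjusted p = 0.0945). Without GWTT replicate 2 it was called (limma adjusted p = 0.0268) against a lone control with 2 reads. All 3 epithelial markers were called higher in distal GS4T cells, and their part in the levels of the Sult genes was not tested.

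Organoids treated for 72 h with IL-1 had more of 3 sulfotransferases and of the sulfate carrier. Of 7 members, 4 rose, beside 10.9% of all genes called higher. Of the 3 control libraries given under 72 h, 2 hold the reads of 12 h controls, and replicate 2 lies close to one of these (chi-square per degree of freedom 3.45, where distinct control libraries otherwise gave 25.7 or more). The culture time of the controls is therefore in doubt, and time in culture and cytokine cannot be told apart at 72 h. Sult1b1 had 977, 1068 and 1115 normalized counts in controls and 3531, 2435 and 4355 with IL-1 (1.67, SE 0.21, limma adjusted p = 0.00301, n = 3 per group). Slc26a2 had 8128, 12545 and 12766 in controls and 24529, 27974 and 47756 with IL-1 (1.55, SE 0.30, limma adjusted p = 0.00732). Treated and control libraries did not overlap for either gene. Sult1a1 rose from 249, 245 and 232 to 802, 384 and 488 (1.13, SE 0.27, limma adjusted p = 0.0154). Sult1d1 rose from 2535, 1452 and 1429 to 3945, 2665 and 5020 (1.11, SE 0.30, limma adjusted p = 0.0217), with its highest control just under its lowest treated library. The 4 members that did not overlap compare with 27% of all genes higher without overlap.

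Neither synthase was called. Papss1 overlapped between groups (−0.20, SE 0.27). Papss2 had 14376, 3534 and 3388 normalized counts in controls and 4807, 6021 and 7546 with IL-1 (0.11, SE 0.52), a mean set by control library 1. That library is among those given under both times. Sult1c2 had 300, 211 and 217 in controls and 68.6, 276 and 124 with IL-1 (−0.84, SE 0.47, limma adjusted p = 0.19). Without IL-1 replicate 2, Sult1c2 was called lower (−1.37, limma adjusted p = 0.0211). Of the 4 calls, those of Sult1b1 and Slc26a2 held with any 1 library left out. That of Sult1d1 was lost without control replicate 2 (limma adjusted p = 0.0736) or 4 (0.0742) and without IL-1 replicate 1 (0.0574) or 3 (0.0751). Sult1a1 was lost without control replicate 4 (0.0532) and, by its fold of 0.84 on the log2 scale, without IL-1 replicate 1. Averaging 2 control libraries whose reads nearly agree left Sult1b1 and Slc26a2, 2 of 7. In that fit 1088 genes were called higher, against 1414 without averaging.

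**Figure D4:**
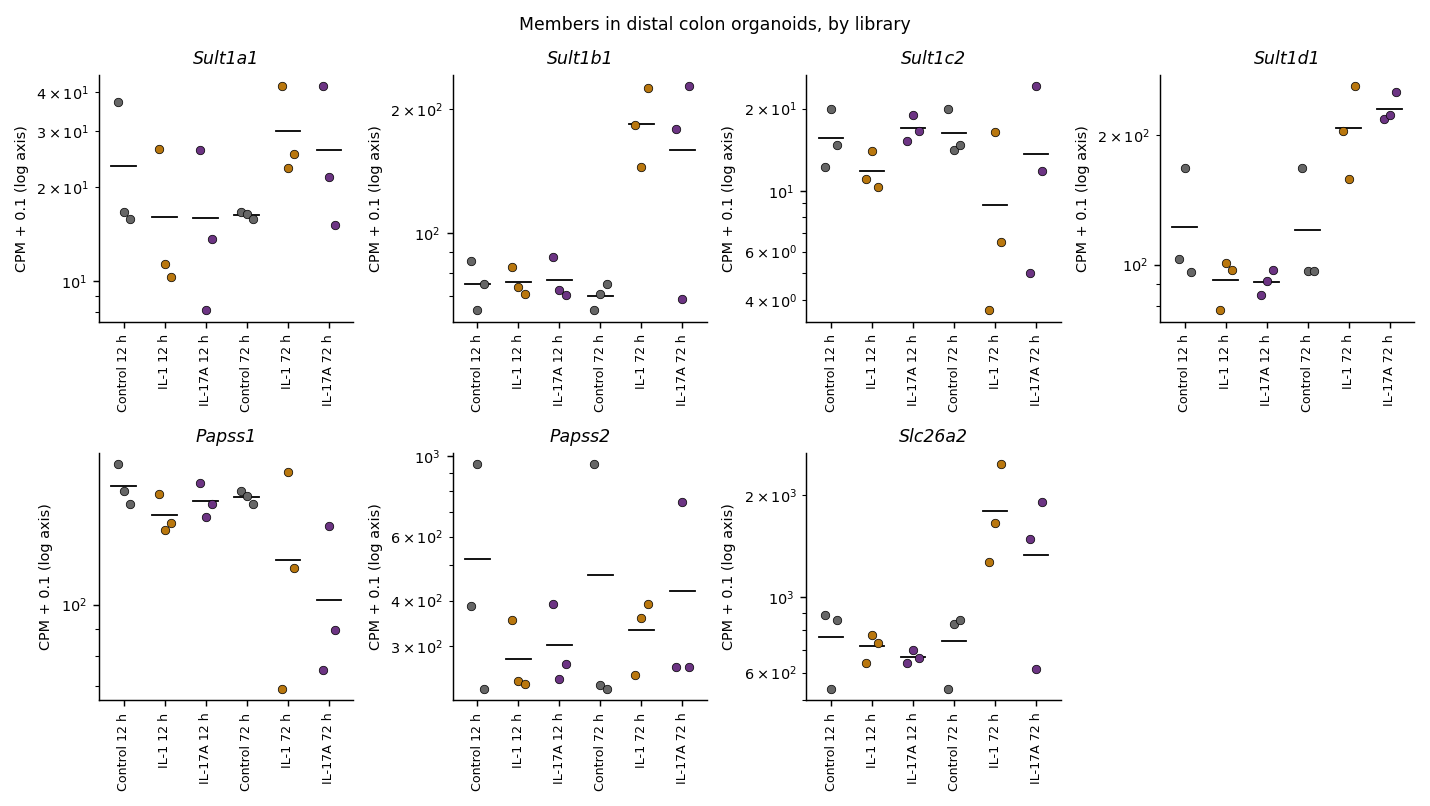
CPM plus 0.1 of each member in every organoid library, on log axes that differ between panels (points are libraries, bars are group means, 3 libraries per group; 2 control libraries appear under both times). After 72 h of IL-1 all 3 libraries of Sult1b1 and Slc26a2 lie above every control library, and for Papss2 1 control library at 952 CPM stands above every other.

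With IL-17A for 72 h, against the same control libraries and with the same doubt about their culture time, 1 of 7 members was called, beside 5.02% of all genes called higher. Sult1d1 had 2530, 1444 and 1426 normalized counts in controls and 4077, 3480 and 5175 with IL-17A (1.27, SE 0.27, limma adjusted p = 0.043). It was lost without either control replicate 2 (0.171) or 4 (0.16), or IL-17A replicate 1 (0.166) or 3 (0.0715), all limma adjusted p. Averaging 2 control libraries whose reads nearly agree also ended this call, in a fit with 2 genes called against 1038 without averaging. The IL-17A libraries were split for Sult1b1, at 3363, 1078 and 4695 against 975, 1062 and 1113 in controls (1.29, SE 0.50, limma adjusted p = 0.109), and for Slc26a2, at 27821, 9640 and 39336 against 8112, 12473 and 12741 (1.01, SE 0.51, limma adjusted p = 0.184). The low library, replicate 2, also had the most transcript of the proliferation genes Mki67 and Top2a, 799 CPM in sum against 264 and 61.6 in the others. Without it, Sult1b1 (1.92, limma adjusted p = 0.00254) and Slc26a2 (1.60, 0.0062) were called. DESeq2 called 3 members with all libraries in, Sult1d1, Sult1b1 and Slc26a2, beside 10.4% of all genes called higher by that tool. Sult1a1 (0.84, SE 0.36) was higher and Papss1 (−0.42, SE 0.19) lower in each treated library, beside 21.7% and 23.6% of all genes, and neither passed the test.

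Colonocyte markers rose in the same IL-1 cultures. Of 6 markers, 4 were called higher: Car4 (2.52, SE 0.42), Slc26a3 (1.78, SE 0.29), the water channel Aqp8 (4.11, SE 0.40) and the keratin Krt20 (1.94, SE 0.40). Their sum was 1857 to 4242 CPM in controls and 4865 to 11134 CPM with IL-1. Both proliferation genes, Mki67 (−2.98, SE 0.53) and Top2a (−2.78, SE 0.51), and both stem cell genes, Lgr5 (−4.39, SE 0.60) and Axin2 (−1.68, SE 0.33), fell. With IL-17A 0 of the 6 colonocyte markers were called, although all 6 changes were above 0. Whether the members' changes go with the share of colonocytes in the cultures was not tested.

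At 12 h, 0 of 7 members were called with IL-1 (0.0542% of all genes) or with IL-17A (0.0385%), and treated and control libraries overlapped for every member. The changes lay between −0.65 (Papss2, SE 0.50) and 0.06 (Sult1b1, SE 0.14) for IL-1, and between −0.54 (Sult1a1, SE 0.52) and 0.19 (Sult1c2, SE 0.20) for IL-17A. Over all genes, limma called 7 with IL-1 and 5 with IL-17A, and 100 and 120 with replicate numbers as a block. The labels do not tie these numbers to a culture, so the result without the block is kept. The 2 cytokines set against each other differed in 0 members and 0 genes at either time by limma, with 30 genes at an unadjusted p under 0.05 and a fold of 2 at 12 h and 76 at 72 h. At 72 h the differences, IL-1 minus IL-17A, were 0.36 (SE 0.32) for Sult1b1, 0.53 (SE 0.34) for Slc26a2 and −0.18 (SE 0.21) for Sult1d1.

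**Figure D5:**
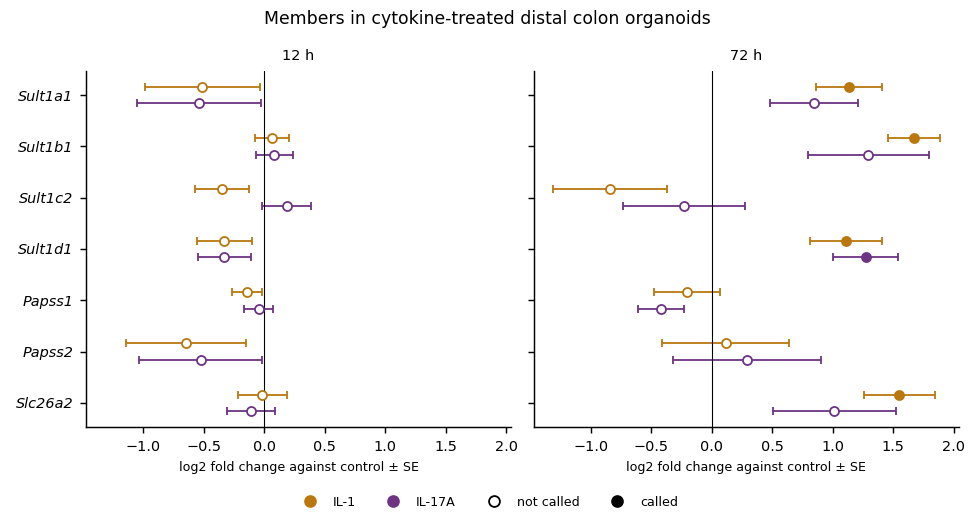
Log2 fold change of each member against control organoids, with its SE, at 12 h and 72 h (limma, 3 libraries per group). IL-1 is orange, IL-17A purple and filled points are called; all points at 12 h are open, and at 72 h IL-1 has 4 filled points and IL-17A has 1, Sult1d1.

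Treated organoids were also compared between 72 h and 12 h. Replicates 3 and 4 of each 12 h treated group lay close together (chi-square per degree of freedom 3.02 with IL-1 and 3.33 with IL-17A). Other pairs within these 12 h groups gave 60.4 or more. Both replicates entered as separate libraries, so the spread at 12 h may be understated. With IL-1, 3 of 7 members were higher at 72 h, beside 5.46% of all genes: Sult1b1 (184 ± 40.6 against 75.7 ± 6.10 CPM, 1.26, SE 0.32, limma adjusted p = 0.00919), Slc26a2 (1802 ± 614 against 717 ± 68.6 CPM, 1.28, SE 0.34, limma adjusted p = 0.0113) and Sult1d1 (208 ± 51.1 against 92.1 ± 12.1 CPM, 1.15, SE 0.21, limma adjusted p = 0.004). With IL-17A, Sult1d1 was higher at 72 h (230 ± 18.3 against 91.2 ± 6.01 CPM, 1.33, SE 0.21, limma adjusted p = 0.00328), 1 of 7 beside 4.49%. Without IL-1 12 h replicate 1, Sult1a1 was called higher at 72 h (1.42, limma adjusted p = 0.0469), and without IL-1 72 h replicate 3 Slc26a2 (1.02, 0.0633) and Sult1d1 (0.97, 0.0268) lost the call. The median of all genes was −0.25 in the first and −0.24 in the second of these comparisons. With TMM normalization in place of total reads, calls that were higher went from 26.0% to 46.3% of all calls with IL-1 and from 28.4% to 49.9% with IL-17A. Time in culture and time on cytokine cannot be told apart here.

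Other genes of sulfate metabolism were called in organoids too, at shares to be set against 10.9% of all genes called higher and 12.2% called lower with IL-1, and 5.02% and 2.92% with IL-17A. After 72 h of IL-1, Sult2b1, a cholesterol sulfotransferase, rose by 1.63 on the log2 scale (SE 0.23, limma adjusted p = 0.00351), 1 of 2 other cytosolic sulfotransferases. Among 5 other sulfate and anion carriers, Slc26a3 rose by 1.78, and Slc26a1 (−1.67) and Slc26a6 (−2.22) fell. Of 16 carbohydrate and tyrosine sulfotransferases, 2 rose, the chondroitin sulfotransferase Chst15 (1.84) and the heparan sulfotransferase Hs6st1 (1.16), and 1 fell, the tyrosine sulfotransferase Tpst1 (−2.41). Of 9 genes of sulfite, sulfide and cysteine oxidation, 1 fell, Cbs (−2.62). Of 12 sulfatases and their activators, Sulf1 rose (3.20) and Arsb fell (−1.02). None of the 4 PAPS carriers and phosphatases was called. With IL-17A, 1 of 17 carbohydrate and tyrosine sulfotransferases, Chst15 (1.78), and 1 of 11 sulfatases, Arsa (1.07), were called, both higher. The members' median change was 1.11 with IL-1 and 0.84 with IL-17A, beside −0.00086 and −0.0056 over all genes tested.

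In the GS4T libraries, some carbohydrate and tyrosine sulfotransferases differed from control. Of 27 carbohydrate and tyrosine sulfotransferases tested in proximal GS4T cells, 6 were called higher and 5 lower, beside 5.25% and 4.36% of all genes. Of 26 in distal GS4T cells 7 were higher and 5 lower, beside 7.88% and 6.08%. Chst4, Gal3st2 and the cysteine enzyme gene Cbs were called higher in at least 1 segment of GS4T cells. All were also higher in goblet than in stromal cells (8.19, 5.56 and 6.63). Chst15, Hs3st3b1 and Hs3st1, also called higher in at least 1 segment, were lower in goblet than in stromal cells (−2.23, −1.12 and −1.04). The epithelial marker sum was 773 and 997 CPM in proximal and 447 and 861 in distal GS4T libraries. In GWTT it was 8.62 and 330 in proximal and 36.9 and 116 in distal libraries. The part of epithelial transcripts in these calls was not tested. In proximal cells Chst4 (3.61), Chst15 (1.68) and Chst11 (1.54) were among those higher, and Chst3 (−2.19), Ndst3 (−2.09) and Tpst1 (−1.37) among those lower. Of 2 other cytosolic sulfotransferases there, Sult5a1 fell (−1.20). In distal cells Hs6st2 (4.58) and Gal3st2 (3.06) were among those higher, and Cbs (2.20) and Got1 (1.45) were called higher among the oxidation genes. With the Alk3 knockout the list held 1 call, Chst1 (1.95, limma adjusted p = 0.0496), in proximal cells.

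As a description, the genes most like each member over the 40 distinct libraries were listed by the Pearson correlation of log2(CPM + 0.1), in which differences between cell types share in every value. Sult1b1 was closest to Cdhr2 (r = 0.988), a brush border protocadherin, Eps8l3 (0.985) and Tmem45b (0.983). Sult1d1 was closest to Slc17a4 (0.974), Ugt2b34 (0.973) and Tmem171 (0.971). Slc26a2 was closest to Ahcyl2 (0.985), Usp53 (0.978) and Cd2ap (0.975). Papss1 lay nearest to Ascc2, Setd3 and Atp9a (0.947, 0.947 and 0.946), Papss2 to Galm and Mob3b (0.936 and 0.916) and Sult1a1 to Surf1, Osbpl7 and Mlycd (0.889, 0.868 and 0.858). Sult1c2, over the 38 libraries of tables that list it, lay nearest to Ttc6, Sh3gl2 and Akr1c19 (0.952, 0.947 and 0.944). Among the members, the 12 goblet libraries gave r = 0.851 for Sult1a1 with Sult1c2, 0.850 for Sult1a1 with Sult1d1 and −0.492 for Papss1 with Papss2. Over the 16 organoid libraries, Sult1b1 and Slc26a2 gave r = 0.934.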

How the data were processed

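RNA-seq libraries were made with a SMARTER mRNA-Seq kit from sorted colon cells and organoids. The authors kept reads that STAR 2.5.3 mapped uniquely to mm10 and normalized gene counts with DESeq2 1.28.1; the counting program, annotation and strand are not given in the sources used here. The deposited values are a normalized signal, counts divided by 1 size factor per library within each of 12 tables. All values were whole multiples of 1 step per library (100% within 0.1 of a whole number), which gave back the reads. Rows without a gene name, 4 in each GS4M2 table with 20.9% to 28.2% of the values, were left out. For proximal GS4M2 cells, the paper's supplementary data head the groups the other way round from the deposited values. Columns of the deposited proximal GS4M2 table were read as named, since its GWTM2 columns hold the same reads as those in the GA3M2 table.

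Each table was fitted alone with limma 3.58.1 (trend) on log2(value + 1), for genes with a mean of at least 10. Comparisons across tables used reads scaled to the total on named genes, log2(CPM + 0.1), for genes with a mean CPM of at least 0.5, with 12 libraries per cell type, 16 organoid libraries or the 8 control libraries in 1 fit. Calls need a Benjamini-Hochberg adjusted p under 0.05 over all genes tested and a fold of at least 2. Alternatives were edgeR 4.0.16, DESeq2 1.42.0, other pseudocounts and filters, TMM, a replicate block and leaving out each library. The scripts were tested on simulated data. Intervals and limits from counts cover counting error only. Named are the 7 members, Smad4 and Bmpr1a, called genes of 6 fixed sulfation lists, the markers, and the 3 genes most like each member, of which 1 is not reported here. The members and lists were chosen with earlier results of these data known.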

Additional observations from a re-analysis of the deposited data

Results flagged for a closer look

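In Gli1+ stromal cells every Smad4 knockout library was below the controls for Papss2 and Sult1a1 in the proximal colon and above them in the distal colon, where neither gene passed the test and 1 Sult1a1 library was near the controls (78.8 against 77.4 normalized counts). The difference, proximal minus distal, was −1.80 on the log2 scale (SE 0.44) for Papss2 and −2.18 (SE 0.79) for Sult1a1. The test of the difference did not pass, with a limma adjusted p of 0.203 and 0.437. The proximal calls were lost without either GS4T replicate. In the proximal colon 31.4% of all genes were lower without overlap. The share that was higher without overlap in the distal colon is not given here. The epithelial marker sum was higher in GS4T than in GWTT libraries of both segments, and its part in these levels was not tested.

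In treated organoids the levels differed between 72 h and 12 h: with IL-1 by 1.28 (SE 0.34) for Slc26a2, 1.26 (SE 0.32) for Sult1b1 and 1.15 (SE 0.21) for Sult1d1, and with IL-17A by 1.33 (SE 0.21) for Sult1d1, all called by limma. Replicates 3 and 4 of each 12 h group were counted as separate libraries, though their reads lay close together. Without IL-1 72 h replicate 3 the calls of Slc26a2 (1.02, limma adjusted p = 0.0633) and Sult1d1 (0.97, 0.0268) were lost, and without IL-17A 72 h replicate 2 Slc26a2 (1.34) and Sult1b1 (1.40) were called as well.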

How the results depend on the processing

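Over 31 comparisons, alternatives gave 2475 member values with the same direction and side of the threshold, 28 no longer called, 57 newly called and 12 with the sign turned. A turn was counted for the 108 values at least 1 SE from 0, not for the 99 nearer. The cause of each change was not tested. Members called went from 0 to 1 in proximal GA3M2, 0 to 1 in distal GS4M2, 0 to 2 in proximal GA3T and 1 to 3 for IL-17A at 72 h with DESeq2, and with unadjusted DESeq2 p-values to 1, 2, 2 and 3, and from 0 to 1 in distal GS4T. Fitting only the groups compared gave 2 in place of 0 for proximal against distal GS4M2, 2 in place of 1 for GWTT, and 0 in place of 1 for IL-17A at 72 h against 12 h, where TMM gave 2 and edgeR 3. Averaging control libraries that nearly agree, chosen after seeing the data, left 2 members for IL-1 and 0 for IL-17A at 72 h. Over all genes those fits called 2196 for IL-1 and 2 for IL-17A, against 2998 and 1038 without averaging.

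The labels tie replicate numbers to no mouse or culture, so the numbers were not used as pairs. The sex genes split the GWTM2 numbers alike in both segments. At 72 h IL-1 and IL-17A libraries numbered 1 and 3 were closest to each other but those numbered 2 were not. Correlations of same-numbered control and treated libraries ran from −0.19 to 0.64. At 12 h they were 0.62 to 0.64, but control 4 gave 0.64 with IL-17A library 3 too. Proximal libraries were not correlated with distal ones, so these values cannot show whether segments share a mouse. With the replicate block, members called were 2 for IL-1 and 0 for IL-17A at 72 h, 1 in proximal GA3M2, 1 in distal GS4T, 3 for proximal against distal GWTM2, 2 for GS4M2, 1 for GA3M2, 1 for proximal GS4M2 against GA3M2 and 3 for IL-17A at 72 h against 12 h. At 12 h it turned Papss2 to 0.19 with IL-17A and 0.0093 with IL-1.

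Leaving out each library gave 2 to 5 members called for IL-1 and 0 to 3 for IL-17A at 72 h, 1 to 3 in proximal GS4M2, 0 to 1 in proximal GA3M2, 0 to 3 in distal GS4M2 and in distal GA3M2, 0 to 4 in proximal GS4T, 0 to 1 in distal GS4T and proximal GA3T, 0 to 2 for proximal against distal GWTM2, 0 to 1 for GA3M2 and GWTT, 0 to 2 for proximal GS4M2 against GA3M2, 1 to 4 for IL-1 and 1 to 3 for IL-17A at 72 h against 12 h. Apart from distal goblet cells, the calls over all genes in these fits are not given here, and they can change too. Neither these counts nor the single calls gained without a library can therefore be set against a background. Leaving out a library also turned signs: Papss2 ran from −1.01 to 0.040 with IL-17A at 12 h, Sult1d1 from −1.02 to 0.051 in proximal GA3M2, Sult1b1 from −0.95 to 5.67 in proximal GA3T, and Papss1 from −0.36 to 0.0089 and Sult1d1 from −0.85 to 5.70 in proximal GS4T. The ends of 5.67 and 5.70 are set by the pseudocount, since the only control left holds 0 reads of Sult1b1 and 2 of Sult1d1. Sult1c2 ran from −1.70 to 0.032 in the Smad4 by segment test of goblet cells and from −1.14 to 0.0023 with IL-17A at 72 h against 12 h. In GS4T against GA3T, Papss2 ran from −0.75 to 0.069 in proximal and Sult1a1 from −0.0058 to 1.70 in distal cells, and Sult1b1 ran from −0.16 to 0.71 in IL-1 against IL-17A at 72 h.

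All-gene counts called by limma, edgeR and DESeq2 were 43, 51 and 270 in proximal GS4M2, 12, 14 and 431 in proximal GA3M2, 0, 0 and 147 in distal GS4M2, 0, 0 and 240 in distal GA3M2, 55, 0 and 969 in proximal GA3T, 0, 0 and 776 in distal GA3T, 7, 2 and 43 for IL-1 and 5, 4 and 51 for IL-17A at 12 h, and 1038, 869 and 2311 for IL-17A at 72 h. With the block they were 260 in proximal GS4M2, 699 in proximal GA3M2, 2333 in distal GS4T (2130 without), 331 for proximal against distal GWTM2 (200, with Sult1a1, Sult1c2 and Sult1d1 called at limma adjusted p = 0.0215, 0.0199 and 0.0179 with the block), 699 for GS4M2 (542), 193 for GA3M2 (97), 312 for proximal GS4M2 against GA3M2 (62), 2844 for IL-17A at 72 h against 12 h (2086), and 1513 for IL-1 (2998 without) and 4 for IL-17A at 72 h. At 12 h the block gave 100 genes for IL-1 (7 without) and 120 for IL-17A (5 without). With edgeR 74.9% of IL-17A calls at 72 h were higher, against 63.2% with limma. The comparison of untreated organoids at 72 h with 12 h was not run, since the times share libraries.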

Other observations

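In control goblet cells, the galactose sulfotransferases Gal3st2, Gal3st2b and Gal3st2c, which sulfate mucin-type sugars, were lower in proximal than in distal colon: the log2 differences were −2.97 (SE 0.52), −4.89 (SE 0.57) and −3.06 (SE 0.42), with limma adjusted p of 0.0216, 0.00266 and 0.00646. In GS4M2 cells they were −3.13, −6.28 and −6.27, all called, and in GA3M2 cells Gal3st2b (−5.13) and Gal3st2c (−4.04) were called. The 3 genes are close copies, so reads may be split between them.

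Goblet cells held more transcript than stromal cells of 8 of 9 genes of sulfite, sulfide and cysteine oxidation, among them Cbs (6.63, SE 0.31), Cth (5.44, SE 0.57) and Cdo1 (4.08, SE 0.39), and of 3 of 4 PAPS carriers and phosphatases, Bpnt1 (2.98), Slc35b3 (1.83) and Slc35b2 (1.09). They held less of 7 of 11 sulfatases and their activators, such as Sulf2 (−3.49) and Arsk (−2.46). Of 16 carbohydrate and tyrosine sulfotransferases, 3 were higher in goblet cells, Chst4 (8.19), Gal3st1 (6.47) and Gal3st2 (5.56), and 10 were lower, such as Chst12 (−6.89) and Chst14 (−5.61). Of all genes tested, 26% were higher and 17.1% lower by the same limma test. With TMM scaling 2623 genes were higher and 2549 lower, against 3208 and 2110.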
